A study of Mus musculus with 6 samples.

Results

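The visinin-like neuronal calcium sensors are small EF-hand proteins that change shape when calcium binds. Many carry an N-terminal myristoyl group that is exposed on calcium binding and brings the protein to membranes, the calcium-myristoyl switch. Within the family, the visinin-like proteins act on cyclases and membrane traffic, neuronal calcium sensor 1 acts on phosphatidylinositol 4-kinase, and the Kv channel-interacting proteins (KChIPs) attach to Kv4 potassium channels. In β cells, calcium is the signal that releases insulin granules, and visinin-like protein 1, encoded by *Vsnl1*, is known in cultured β cells as a modulator of cAMP and insulin secretion.

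The 10 members described here, *Vsnl1*, *Hpcal4*, *Hpca*, *Hpcal1*, *Ncald*, *Ncs1* and *Kcnip1* to *Kcnip4*, were taken by gene name from a table of 55060 genes. *Vsnl1* was chosen because its level was lower in cKO islets, and the other 9 were chosen as its relatives. The difference in *Vsnl1* between the genotypes is therefore given as a description with no test.

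RNA was sequenced from islets of 12-week-old mice, 3 Ctrl samples and 3 cKO samples. The cKO mice were *Ins2-Cre; Parn f/f*: loxP sites flank exon 7 of *Parn*, which encodes the poly(A)-specific ribonuclease PARN, and Cre is driven by the *Ins2* promoter, so that islet cells other than β cells keep *Parn*. The Ctrl mice were *Parn f/f* mice and other littermates. The sources used here do not say which Ctrl samples carried Cre, so the presence of Cre and the loss of *Parn* cannot be told apart. The labels do not say that the samples of a genotype came from separate mice, so p-values measure the spread between these samples only. Levels are in FPKM, counts of fragments set per unit of gene length and of library size. The library sizes read back from the FPKM were 15731223 to 18085944, which are scaled sizes and not totals of reads. The reads on genes summed to 16289408 to 17944775. In islet samples, fewer cells of a type and less RNA per cell cannot be told apart.

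Ctrl replicate 1 stood apart from the other libraries. Its mean Pearson's r with the other 5 was 0.951, against 0.961 to 0.968 for the others. Its *Lyz2* level, a macrophage and neutrophil marker, was 539 FPKM against 15.6 to 56.0 in the other 5 samples. Where a count of genes called or a direction among the members changed without it, the value without it is given as well. *Parn* itself was 6.64, 8.34 and 7.38 FPKM in Ctrl and 4.97, 4.61 and 6.15 in cKO, so the genotypes did not overlap (log2 fold change -0.44, adjusted p = 0.545 in limma).

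To place *Vsnl1* within its family, the coding sequences of 1 transcript per gene from the GENCODE M21 annotation of GRCm38 were aligned codon by codon. The closest relative of *Vsnl1* was *Hpcal4*, with 82.4% of 573 aligned coding bases identical. *Hpcal1*, *Hpca* and *Ncald* followed with 72.84%, 71.60% and 70.02%, *Ncs1* with 63.8%, and the 4 *Kcnip* genes with 52.7% to 54.1%. The closest pair of the family was *Hpca* and *Hpcal1* at 86.0%. The *Kcnip* genes shared 64.6% to 71.7% with each other and 49.7% to 56.0% with the other 6 members, so they formed a separate branch.

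**Figure D1:**
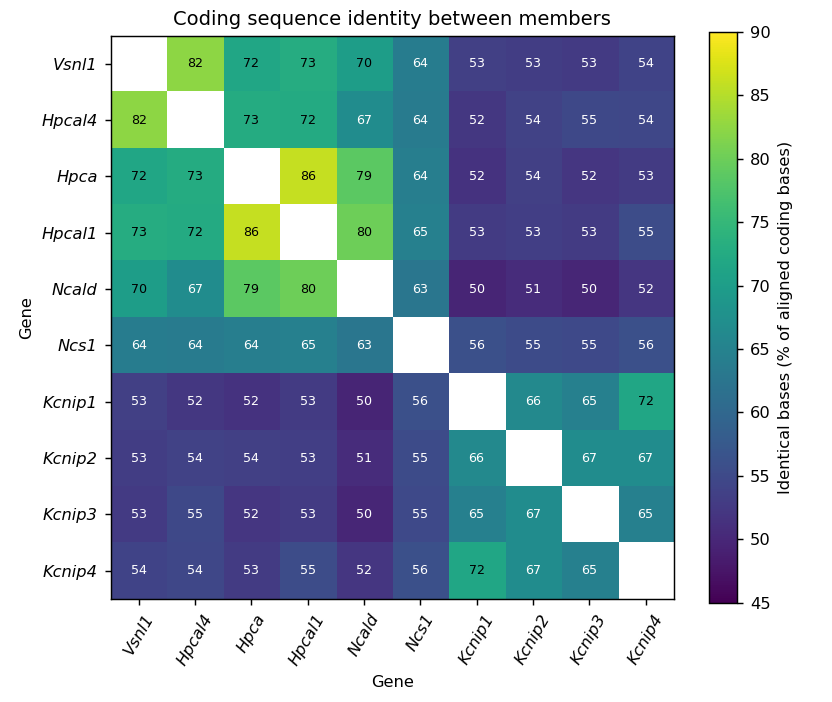
Identical bases as a percentage of aligned coding bases for each pair of the 10 genes, with 1 transcript per gene from GENCODE M21. *Vsnl1* is closest to *Hpcal4* (82.4%), *Hpca* to *Hpcal1* (86.0%), and the 4 *Kcnip* genes make a block of their own (64.6% to 71.7%).

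The window below holds 60 coding bases and was chosen by script as the ungapped stretch in which the relatives were, on average, most like *Vsnl1*. It is shown because it makes the branches visible base by base and because a read can be assigned to a gene only through bases that differ. It covers codons 54 to 73 of *Vsnl1-201*, in exons 2 and 3 of 4, and these lie with an intron between them at chr12:11332160-11386817 on the minus strand. The *Hpcal4-201* window spans exons 3 and 4 of 5 at chr4:123188881-123189081 on the plus strand. The *Hpcal1-201* and *Hpca-201* windows lie within exon 2, at chr12:17786330-17786389 (plus) and chr4:129118523-129118582 (minus). Those of *Ncald-201* and *Ncs1-201* lie within exons 5 and 3, at chr15:37397216-37397275 (minus) and chr2:31280736-31280795 (plus). The *Kcnip1-203* window spans exons 4 and 5 at chr11:33643326-33644517 (minus). All are exonic and coding, are written 5′ to 3′ on the gene's strand, and show in capitals the bases that differ from *Vsnl1*.
Vsnl1: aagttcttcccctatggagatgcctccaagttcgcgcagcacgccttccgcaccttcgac
Hpcal4: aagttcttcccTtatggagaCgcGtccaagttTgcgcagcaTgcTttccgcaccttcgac
Hpcal1: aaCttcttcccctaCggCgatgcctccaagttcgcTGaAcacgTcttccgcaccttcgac
Hpca: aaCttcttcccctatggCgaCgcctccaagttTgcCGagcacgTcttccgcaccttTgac
Ncald: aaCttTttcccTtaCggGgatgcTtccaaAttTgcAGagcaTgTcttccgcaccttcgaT
Ncs1: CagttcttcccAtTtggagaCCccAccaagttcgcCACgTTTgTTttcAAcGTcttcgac
Kcnip1: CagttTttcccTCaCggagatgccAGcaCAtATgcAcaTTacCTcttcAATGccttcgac

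In this window *Hpcal4* differed from *Vsnl1* at 6 bases, *Hpcal1* at 7, *Hpca* at 8 and *Ncald* at 13. *Ncs1* differed at 18 bases, and the *Kcnip* genes at 20 to 24. The longest run of identical coding bases between *Vsnl1* and any relative was 28, with *Hpcal1*, and the run shared with *Hpcal4* was 24. Over all pairs the longest such run was 46 bases, between *Hpca* and *Ncald*. Over the whole transcripts, noncoding bases included, the longest run with *Vsnl1* was 32 bases, with *Hpca* and with *Kcnip3*. *Hpca* and *Kcnip3* shared 45 bases, and the longest of all pairs stayed at 46. The read length and the handling of reads with several matches are not given in the sources used here.

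Across the 6 samples, the family was led by *Hpcal1*, with a mean level of 23.4 FPKM. *Kcnip1* (8.81) and *Ncald* (8.45) followed and did not differ beyond their spread over samples. *Vsnl1*, at 4.54 FPKM, came next in the order, above *Kcnip3* at 2.66 by less than its own SD over the 6 samples. *Ncs1* (1.62), *Kcnip4* (1.29) and *Kcnip2* (0.853) were lower in turn, each gap being larger than either SD. Not every sample kept this order: *Ncs1* was above *Kcnip4* in 4 of 6 samples and *Kcnip4* above *Kcnip2* in 5 of 6. *Hpcal4* (0.284) and *Hpca* (0.242) were last and within their spread of each other. The order of these last genes was not the same in the genotypes: *Hpcal4* was the lowest member in all 3 Ctrl samples and *Hpca* in all 3 cKO samples. *Vsnl1*, whose values chose it, ranked 4, 3 and 3 within the Ctrl samples and 5, 5 and 4 within the cKO samples, so the ranks met at 4.

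**Figure D2:**
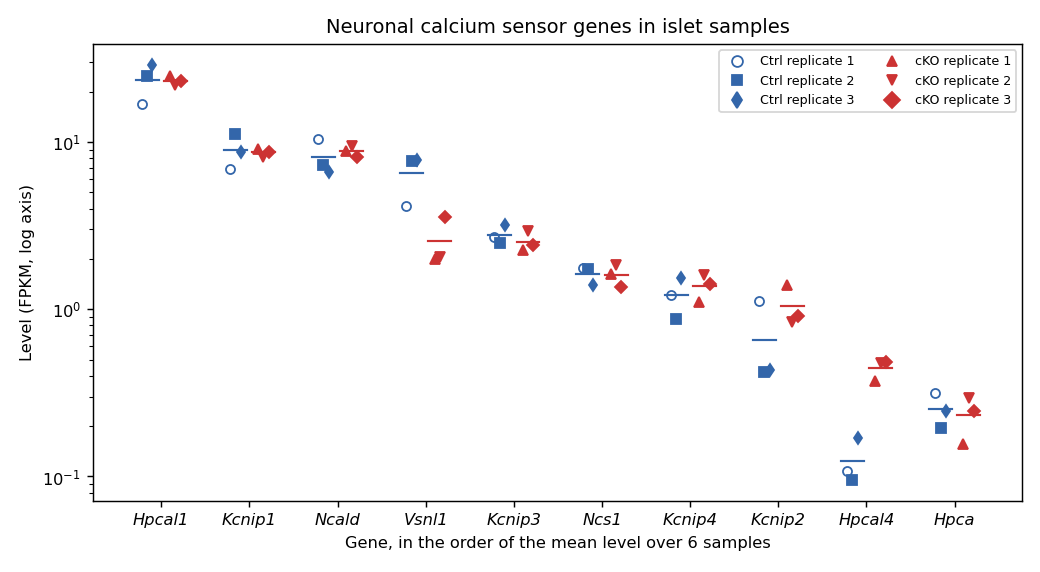
FPKM (log axis) of the 10 genes in each of the 3 Ctrl samples (blue) and 3 cKO samples (red), in the order of the mean level over 6 samples, with a line at the mean of each genotype. *Hpcal1* leads at 16.9 to 29.0 FPKM, and the genotypes are apart only for *Vsnl1*, lower in cKO, and *Hpcal4*, higher in cKO.

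*Vsnl1* (ENSMUSG00000054459, chr12:11325242-11436613, minus strand) was at 4.16, 7.67 and 7.77 FPKM in Ctrl replicates 1, 2 and 3 and at 2.01, 2.06 and 3.56 FPKM in cKO replicates 1, 2 and 3. The genotypes did not overlap, with a narrow gap between the highest cKO sample, replicate 3, and the lowest Ctrl sample, replicate 1. The reads behind these values were 142, 236 and 253 in Ctrl and 69, 70 and 126 in cKO. The exact Poisson 95% intervals, which cover counting error only, were 120 to 167 reads for Ctrl replicate 1 and 105 to 150 for cKO replicate 3, so these intervals overlapped. The mean was 6.54 ± 2.06 FPKM (SD, n = 3) in Ctrl and 2.54 ± 0.883 FPKM (SD, n = 3) in cKO, a ratio of 0.389. On the log2(FPKM + 1) scale, which understates the change of low genes, the difference was -1.08, and it was -1.33 without Ctrl replicate 1.

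With this difference, the share of *Vsnl1* in the summed FPKM of the 10 genes was 9.13%, 13.5% and 13.2% in Ctrl, against 3.90%, 4.16% and 7.08% in cKO. The summed level of the other 9 was 47.3 ± 5.22 FPKM in Ctrl and 47.9 ± 1.44 FPKM in cKO (SD, n = 3 each), a difference smaller than the spread of the Ctrl samples. *Hpcal4*, the one relative whose samples did not overlap, was so low that *Vsnl1* and *Hpcal4* together came to 6.66 ± 2.07 FPKM in Ctrl and 2.99 ± 0.922 FPKM in cKO.

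The genes whose level followed that of *Vsnl1* most closely over the 6 samples were taken from the 13362 others with a mean of at least 1 FPKM, by Pearson's r of log2(FPKM + 1). They were *Cdh22* (r = 0.989), a cadherin, *Srpk2* (0.983), a kinase of splicing factors, *Ccdc163* (0.982), *Zfp14* (0.981), a zinc finger gene, and *Loxl2* (0.979), a lysyl oxidase-like enzyme. *Cdh22* was 4.77, 6.37 and 6.04 FPKM in Ctrl and 3.04, 3.40 and 4.39 FPKM in cKO, lowest in cKO and intermediate in Ctrl replicate 1, as *Vsnl1* was. In all, 43 genes had r of at least 0.95 and 77 had r of at most -0.95. These values describe 6 samples that differ by genotype and share their libraries, and no p was computed. Among the relatives the r with *Vsnl1* ran from -0.84 for *Kcnip2* and -0.77 for *Hpcal4* to 0.38 for *Kcnip1*.

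For the relatives, the genotypes were compared with limma on log2(FPKM + 1) over the 21211 genes with a mean of at least 0.1 FPKM, with Benjamini-Hochberg adjustment over all of them. All 9 relatives passed this filter. None had an adjusted p under 0.05, and neither did any other gene, 0 of 21211 (0%), whereas 2 genes did with limma's voom on reads. At an unadjusted p under 0.05, 1 of 9 relatives was higher in cKO (*Hpcal4*) against 4.33% of all genes (919), and 0 of 9 were lower against 3.07% (651). In either direction the background was 7.40% (1570 genes), so the share of the relatives called, 1 of 9, was near the background. Ctrl and cKO samples were fully apart for 1 of 9 relatives and for 13.1% of all genes. The median log2 fold change of the relatives was 0.00, beside -0.01 for all genes.

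*Hpcal4* (ENSMUSG00000046093, chr4:123183227-123194701, plus strand) encodes visinin-like protein 2. Its level was 0.107, 0.0953 and 0.169 FPKM in Ctrl, against 0.373, 0.474 and 0.487 FPKM in cKO. All 3 cKO samples were above all 3 Ctrl samples, at levels near the bottom of the family. The reads were 10, 8 and 15 in Ctrl and 35, 44 and 47 in cKO. The Poisson 95% intervals overlapped between the genotypes for Ctrl replicate 3, up to 24.7 reads, and cKO replicate 1, down to 24.4, and for no other pair. The mean was 0.124 ± 0.0395 FPKM in Ctrl and 0.445 ± 0.0622 FPKM in cKO (SD, n = 3 each), a ratio of 3.59. The log2 fold change on the log2(FPKM + 1) scale was 0.36 (standard error 0.0946, unadjusted p = 0.00748, adjusted p = 0.481 in limma). With the reads in voom, which adds no pseudocount of 1 FPKM, the log2 fold change was 1.91, with an adjusted p of 0.213 in limma. *Vsnl1* and its closest relative in sequence were thus far apart in level and differed between the genotypes in opposite directions, with the direction of *Vsnl1* set by its choice and the difference in *Hpcal4* not passing the adjustment.

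**Figure D3:**
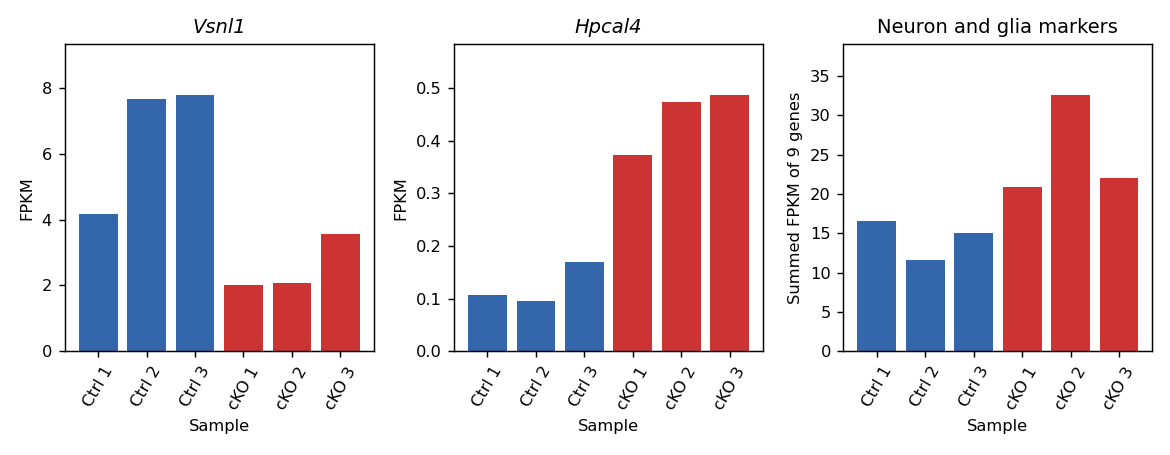
FPKM of *Vsnl1* (left) and *Hpcal4* (middle) and the summed FPKM of the 9 neuron and glia markers (right) in each sample, with Ctrl in blue and cKO in red; the axes start at 0 and differ in scale. *Vsnl1* is highest in Ctrl replicates 2 and 3, *Hpcal4* is at 0.373 to 0.487 FPKM in cKO against 0.0953 to 0.169 in Ctrl, and the marker sum is 20.9 to 32.5 against 11.7 to 16.6.

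Markers of other cells differed between the genotypes beside these values. The 9 markers of neurons and glia were all above 0 in every sample, all had a positive log2 fold change, and 4 had an unadjusted p under 0.05 (among them the neuronal intermediate filaments *Prph*, *Nefl* and *Nefm*). Their summed level was 11.7 to 16.6 FPKM in Ctrl and 20.9 to 32.5 FPKM in cKO, without overlap. *Prph*, of peripheral neurons, was 3.73, 3.59 and 5.11 FPKM in Ctrl and 8.14, 14.2 and 8.85 FPKM in cKO (adjusted p = 0.379 in limma). Without Ctrl replicate 1, 3 of these 9 markers had such a p. Of all 21211 genes tested, 4.33% were higher at such a p with all 6 samples, and 1251 genes were higher without Ctrl replicate 1. The part of these cells in the *Hpcal4* values was not tested.

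The 8 β-cell markers were at levels that mark the tissue as islet, and their sum was 234546 to 274956 FPKM in Ctrl and 193706 to 215896 FPKM in cKO. The largest part of the sum was *Ins2*, 168013 ± 12091 FPKM in Ctrl and 122054 ± 12099 in cKO. *Ins1* was next, 69285 ± 6580 and 67455 ± 3087, and *Iapp* followed, 20552 ± 3427 and 14015 ± 489 (SD, n = 3 each). *Ins2* and *Iapp* did not overlap between the genotypes, whereas the other 6 markers, *Ins1* among them, overlapped. Of the 8, 7 had a negative log2 fold change and 1, *Ucn3*, was lower at an unadjusted p under 0.05, also without Ctrl replicate 1. Of all 21211 genes tested, 3.07% were lower and 4.33% higher at such a p, and 13.1% did not overlap between the genotypes. In the fit without Ctrl replicate 1, 1173 of them were lower and 1251 higher. Without the trend in limma, 3 of 8 were lower at such a p, *Ins2*, *Iapp* and *Ucn3*, beside 636 of the 21211 genes. The part of this difference in the *Vsnl1* values was not tested. The sum of the endothelial markers also separated the genotypes, at 84.7 to 99.1 FPKM in Ctrl and 109 to 139 in cKO. *Plvap* was its largest part, 66.1 ± 7.56 and 89.2 ± 10.9 FPKM (SD, n = 3 each). *Plvap* and *Cdh5* did not overlap between the genotypes, whereas *Pecam1* and *Kdr* did. At an unadjusted p under 0.05, 2 of 4 were higher, or 1 of 4 without Ctrl replicate 1, against the same background of all genes. The duct markers did not move together. Their sums were 40.0 to 43.6 FPKM in Ctrl and 31.3 to 39.7 in cKO, with *Krt7*, 31.3 ± 3.10 and 25.3 ± 1.81 FPKM, as the largest part and lower at an unadjusted p under 0.05, while *Cftr*, 0.604 ± 0.663 and 2.66 ± 1.04 FPKM, was higher (SD, n = 3 each). Of the stromal markers 1 of 4 was higher, or 0 of 4 without Ctrl replicate 1, against that background, and their sums overlapped. None of the 3 δ-cell, 1 PP-cell, 6 acinar and 4 leukocyte markers had an unadjusted p under 0.05. The acinar sums were 5217 to 14778 FPKM in Ctrl and 6760 to 24416 in cKO, so exocrine RNA was present in every sample. The leukocyte sums were 137 to 853 FPKM in Ctrl, the highest in replicate 1, and 143 to 237 in cKO.

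The hippocalcin branch, *Hpca*, *Hpcal1* and *Ncald*, showed no difference past the test. *Hpcal1* (ENSMUSG00000071379, chr12:17690856-17791933, plus strand), visinin-like protein 3, was 16.9, 24.98 and 29.0 FPKM in Ctrl and 24.7, 21.9 and 23.0 FPKM in cKO. The Ctrl samples were wider apart than the cKO samples and enclosed them, and the log2 fold change was 0.00 with a 95% interval of -0.45 to 0.46 (adjusted p = 0.999 in limma). Without Ctrl replicate 1, its lowest sample, the value was -0.21 with an unadjusted p of 0.0868 in limma.

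*Ncald* (ENSMUSG00000051359, chr15:37366175-37792570, minus strand) encodes neurocalcin δ, a sensor known for calcium-dependent binding to clathrin and to guanylate cyclases. Its level was 10.4, 7.26 and 6.63 FPKM in Ctrl and 8.86, 9.48 and 8.12 FPKM in cKO. Ctrl replicate 1 was the highest of all 6 and the other Ctrl samples were the lowest, so the genotypes overlapped. The log2 fold change was 0.13 with a 95% interval of -0.26 to 0.52 (adjusted p = 0.887 in limma), and without Ctrl replicate 1 it was 0.30 with an unadjusted p of 0.0260 and an adjusted p of 0.375. *Hpca* (ENSMUSG00000028785, chr4:129111570-129122036, minus strand), hippocalcin, best known from hippocampal neurons, had the lowest mean over the 6 samples. Its level was 0.314, 0.196 and 0.247 FPKM in Ctrl and 0.156, 0.295 and 0.246 FPKM in cKO. The genotypes overlapped, and the log2 fold change was -0.02, with a 95% interval from -0.26 to 0.21 (adjusted p = 0.975 in limma).

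*Ncs1* (ENSMUSG00000062661, chr2:31245823-31295989, plus strand), which encodes the sensor that activates phosphatidylinositol 4-kinase β, was steady across samples. It was 1.76, 1.75 and 1.40 FPKM in Ctrl and 1.61, 1.83 and 1.37 FPKM in cKO, and both genotypes had 1 sample near 1.4, replicate 3. The log2 fold change was -0.02 with a 95% interval of -0.32 to 0.29 (adjusted p = 0.985 in limma).

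Of the KChIPs, *Kcnip1* was the most abundant in islets and *Kcnip2*, the main form in heart, was the least. *Kcnip1* (ENSMUSG00000053519, chr11:33629339-33993152, minus strand) was 6.88, 11.2 and 8.73 FPKM in Ctrl and 9.10, 8.15 and 8.75 FPKM in cKO. As for *Hpcal1*, the Ctrl samples enclosed the cKO samples, and the log2 fold change was -0.02 with a 95% interval of -0.41 to 0.38 (adjusted p = 0.989 in limma).

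*Kcnip2* (ENSMUSG00000025221, chr19:45791839-45816061, minus strand) was 1.12, 0.421 and 0.432 FPKM in Ctrl and 1.39, 0.844 and 0.907 FPKM in cKO. Ctrl replicate 1 lay among the cKO samples, and the other Ctrl samples lay below all of them. The ratio of the means was 1.59 and the log2 fold change 0.32 with a 95% interval of -0.16 to 0.81 (adjusted p = 0.800 in limma). Without Ctrl replicate 1 the log2 fold change was 0.51, with an unadjusted p of 0.0188 and an adjusted p of 0.340 in limma.

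*Kcnip3* (ENSMUSG00000079056, chr2:127456498-127522094, minus strand) encodes KChIP3, also called calsenilin or DREAM, which in the nucleus represses the prodynorphin gene. It was 2.72, 2.49 and 3.17 FPKM in Ctrl and 2.26, 2.92 and 2.42 FPKM in cKO, with overlapping samples (log2 fold change -0.10, 95% interval -0.41 to 0.20, adjusted p = 0.887 in limma). *Kcnip4* (ENSMUSG00000029088, chr5:48389502-49524907, minus strand) was 1.22, 0.876 and 1.54 FPKM in Ctrl and 1.10, 1.60 and 1.42 FPKM in cKO. Its samples also overlapped (log2 fold change 0.11, 95% interval -0.27 to 0.49, adjusted p = 0.905 in limma).

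**Figure D4:**
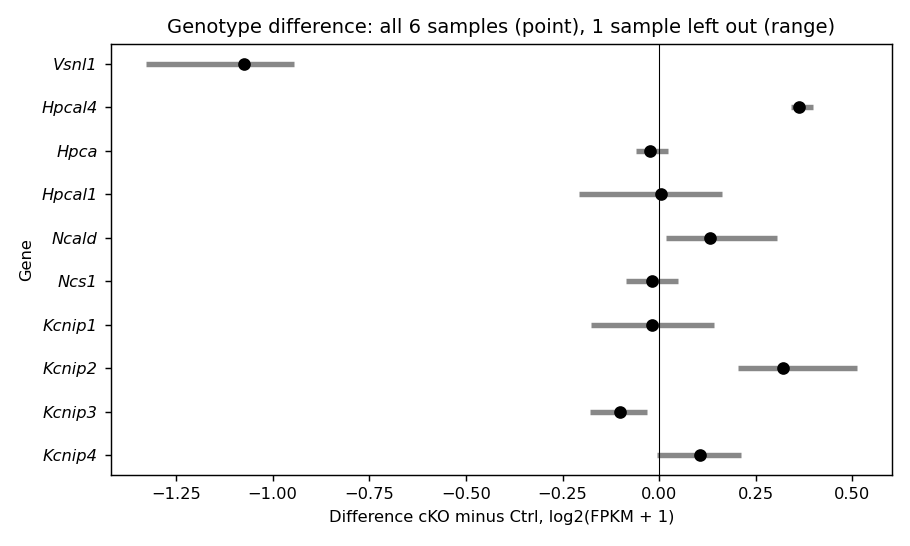
Difference between cKO and Ctrl in log2(FPKM + 1) for each of the 10 genes (points) and the range of this difference when each of the 6 samples was left out in turn (bars). *Vsnl1* (-1.33 to -0.94), whose direction was set by its choice, and *Hpcal4* (0.34 to 0.40) lie apart from 0 throughout. The bars of *Hpcal1*, *Hpca*, *Ncs1*, *Kcnip1* and *Kcnip4* cross 0. The bars of *Kcnip2* (0.20 to 0.51), *Ncald* (0.02 to 0.30) and *Kcnip3* (-0.18 to -0.03) do not cross 0 either.

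Exons of 7 of the 10 members overlap no other annotated gene. In *Kcnip4*, 4.63% of the exon bases are shared with the antisense gene *5730480H06Rik*, at 0.978 to 1.26 FPKM, and 2.73% with *Gm20700*. In *Ncald*, 4.04% are shared with *Gm28221* and 3.33% with *Gm49397*, and in *Hpca* 1.95% with *Tmem54*. *Gm20700*, *Gm28221* and *Gm49397* are listed at 0 in all samples. Whether reads were counted by strand is not given in the sources used here, so reads of the *Kcnip4* overlap may belong to either gene.

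The genes that these sensors work with were read from lists chosen by function. Of the other neuronal calcium sensors, which serve vision, recoverin (*Rcvrn*) was listed at 0 in all 6 samples. The guanylate cyclase activators *Guca1a* and *Guca1b* were measured. *Guca1a* was 4.005, 3.20 and 1.17 FPKM in Ctrl and 1.43, 3.03 and 2.79 FPKM in cKO, with overlap, and *Guca1b* had a mean of 0.258 FPKM. Neither had an unadjusted p under 0.05, and the smaller adjusted p was 0.929 in limma.

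None of the 4 tested Kv4 channel and DPP subunits, of 5 listed, differed at an unadjusted p under 0.05 (smallest adjusted p = 0.820 in limma). The most abundant were *Dpp6*, an auxiliary Kv4 subunit, at a mean of 1.97 FPKM and *Kcnd1*, the pore of Kv4.1, at 1.67 FPKM. Both were below *Kcnip1* and *Kcnip3* in level per length. The 6 tested partners of neuronal calcium sensor 1, of 8 listed, also gave 0, with a smallest adjusted p of 0.773 in limma. *Arf1*, a small GTPase of the Golgi, had a mean of 172 FPKM and *Pi4kb*, the kinase, 12.1 FPKM.

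Of the 17 adenylate and guanylate cyclases, 15 were tested, and 2 were higher and 0 lower in cKO at an unadjusted p under 0.05, against 4.33% higher and 3.07% lower of all genes. *Gucy1a1*, a subunit of the nitric oxide receptor, was 0.954, 0.748 and 0.802 FPKM in Ctrl and 1.16, 1.62 and 1.37 FPKM in cKO, without overlap (log2 fold change 0.37, adjusted p = 0.582 in limma). *Gucy2c*, the guanylin receptor, was 4.68, 3.71 and 4.30 FPKM in Ctrl and 12.2, 4.55 and 7.81 FPKM in cKO, so that cKO replicate 2 lay within the Ctrl range (log2 fold change 0.73, adjusted p = 0.671 in limma). Neither call held when single samples were left out. *Gucy1a1* kept an unadjusted p under 0.05 in 2 of 6 such fits, those without Ctrl replicate 1 or cKO replicate 1, and its highest p was 0.0684 in limma. *Gucy2c* kept it in 1 of 6, without cKO replicate 2, and its highest p was 0.139 in limma. Without Ctrl replicate 1, 3 cyclases were called, all higher: *Gucy1a1*, its partner subunit *Gucy1b1*, and *Adcy4*. More genes were called in that fit, 1251 higher and 1173 lower of 21211, so its background was larger than the shares given above. The median log2 fold change of the list was 0.08, beside -0.01 for all genes. The most abundant cyclases, *Adcy6* at 14.6 FPKM and *Adcy9* at 10.4 FPKM in the mean, were not among those called.

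The 4 enzymes of N-terminal myristoylation gave 0 genes at an unadjusted p under 0.05 (smallest adjusted p = 0.719 in limma). *Metap2*, which removes the first methionine, had a mean of 14.97 FPKM and *Nmt1*, which attaches the myristoyl group, 13.7 FPKM. The 5 partners and targets of KChIP3 also gave 0, with a smallest adjusted p of 0.891 in limma. *Pdyn*, which encodes prodynorphin, had a mean of 14.4 FPKM.

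Of 25 other EF-hand calcium sensors and buffers, 21 were tested, and 1 was higher and 2 were lower in cKO at an unadjusted p under 0.05, against the same background. *Cabp7*, a calcium-binding protein of the Golgi, was 32.4, 46.6 and 55.6 FPKM in Ctrl and 24.4, 25.4 and 28.7 FPKM in cKO, without overlap. Its mean over the 6 samples, 35.5 FPKM, was above that of each of the 10 members. Its log2 fold change was -0.73 (standard error 0.195, unadjusted p = 0.00855, adjusted p = 0.488 in limma), and the unadjusted p stayed under 0.05 in 6 of 6 fits that left out 1 sample. The other gene called lower, *Cabp1*, was 4.76 ± 0.578 FPKM in Ctrl and 3.49 ± 0.654 FPKM in cKO (SD, n = 3 each, log2 fold change -0.36, adjusted p = 0.650 in limma). *Tesc*, which encodes tescalcin, was 2.27 ± 0.694 FPKM in Ctrl and 3.28 ± 0.133 FPKM in cKO (log2 fold change 0.41, adjusted p = 0.665 in limma). When samples were left out singly, *Cabp1* stayed called in 2 of 6 fits, those without Ctrl replicate 1 or cKO replicate 1, with a highest p of 0.123 in limma. *Tesc* stayed called in 1 of 6, without Ctrl replicate 1, with a highest p of 0.122 in limma. The most abundant of the list were *Calm2*, which encodes calmodulin, with a mean of 167 FPKM and *S100a11*, and neither was called.

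**Figure D5:**
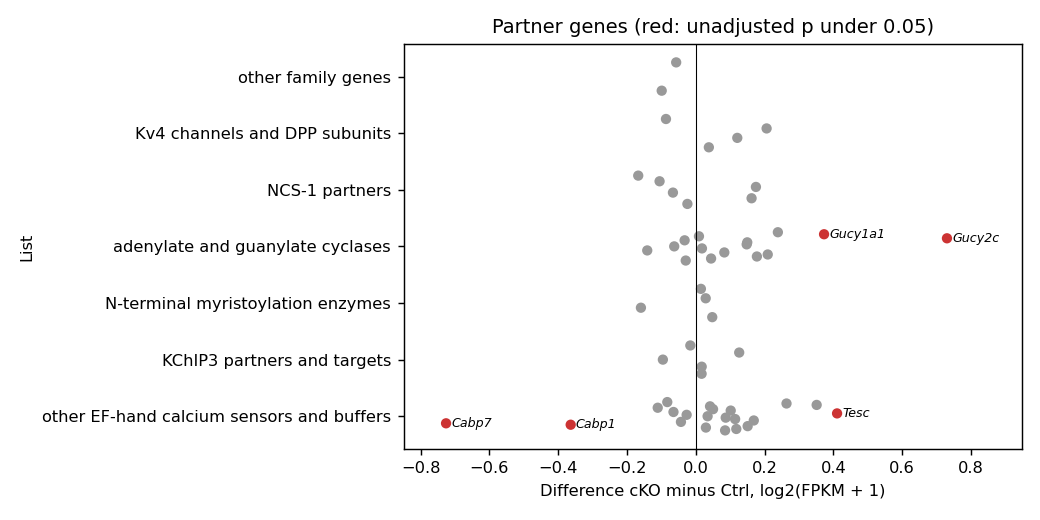
Difference between cKO and Ctrl in log2(FPKM + 1) for each tested gene of the 7 lists (points, spread vertically for legibility only), with genes at an unadjusted p under 0.05 in red. The 5 red points are *Cabp7* (-0.73) and *Cabp1* (-0.36) on the lower side and *Gucy1a1* (0.37), *Tesc* (0.41) and *Gucy2c* (0.73) on the higher side, all with an adjusted p over 0.05.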

How the data were processed

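The authors deposited 1 table of FPKM per gene and sample for 3 Ctrl and 3 cKO islet libraries. TRIzol RNA and SMARTER mRNA libraries were used, and the genome builds in the submitters' processing notes are GRCm38 and mm10. The aligner, counter and annotation release are not given in the sources used here. The authors compared genotypes with DESeq2; those results were not used here. FPKM times gene length was a whole multiple of the value of 1 read for 100% of values, so reads and library sizes were read back. Median-of-ratios factors on the FPKM were 1 in every sample, with a largest deviation of 1.4e-08, so the library sizes of the FPKM act as such factors. The reads on genes summed to 16289408 to 17944775.

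The genotypes were compared with limma 3.58.1 in R 4.3.3 on log2(FPKM + 1), by empirical Bayes with a trend, two-sided, with Benjamini-Hochberg adjustment over 21211 genes, those whose mean FPKM reached 0.1. Coding sequences were aligned with MAFFT 7.526, and figures were drawn with Python 3.11.15 and matplotlib 3.10.9. The planned comparison of proteins was not run, and coding bases were compared in its place. The script was tested on simulated data.

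Named genes were all 10 members, *Parn*, genes of the function lists at an unadjusted p under 0.05 or among the 2 most abundant of a list, the 5 genes most like *Vsnl1* among those whose mean FPKM reached 1, and markers. *Lyz2*, *Gucy1b1*, *Adcy4*, the overlapping genes and the markers named singly were chosen after their values were seen. Some genes that were tested are not reported here. The members and lists were chosen with earlier results of these data known. The alternatives were other pseudocounts, filters, scalings and tests, a replicate block, and each sample left out. Same-numbered samples did not deviate together: their correlations were -0.17, -0.02 and -0.07.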

Additional observations from a re-analysis of the deposited data

How the results depend on the processing

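The difference in *Vsnl1* was negative in 17 of 17 alternatives, from -1.34 to -0.94, and from -1.33 to -0.94 leaving out 1 sample. Its direction was set by its choice. The other filters, the fit without the trend and the replicate block could not change this difference and returned -1.08. Median-of-ratios scaling, with factors of 1, repeated the main fit. *Hpcal4* was higher at an unadjusted p under 0.05 in the 16 alternatives that tested it. With a minimum mean of 1 FPKM it was not tested, and 0 of the 6 relatives tested were called. Leaving out 1 sample gave 1 to 3 relatives called, 3 being *Hpcal4*, *Ncald* and *Kcnip2* without Ctrl replicate 1, and between 1165 and 2424 genes at an unadjusted p under 0.05, the most without Ctrl replicate 1 (1251 higher and 1173 lower, 1 of them at an adjusted p under 0.05 in limma).

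Small differences changed sign. *Ncs1* was 0.0508 in voom on reads and 0.0368 scaled to the total reads on genes, and ran from -0.0854 to 0.0489 leaving out 1 sample, positive without Ctrl replicate 1 (0.0172), Ctrl replicate 2 (0.0139) and cKO replicate 3. *Kcnip1* was 0.0709 and 0.0599 under the same voom and scaling, and ran from -0.18 to 0.14, positive without Ctrl replicate 2 and without cKO replicate 2 (0.0197). *Hpca* ran from -0.0602 to 0.0219, positive without Ctrl replicate 1 (0.0117) and cKO replicate 1. *Hpcal1* ran from -0.21 to 0.16, negative without Ctrl replicate 1 and without cKO replicate 1 (-0.0394). *Kcnip4* ran from -0.00615, without Ctrl replicate 2, to 0.21. The cause was not tested.

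Of the 1570 genes called, 58.5% were higher. Leaving out 1 sample gave 48.6% (811 higher and 857 lower, without Ctrl replicate 3) to 65.5% (without cKO replicate 3). This was 82.0% of 1827 in voom on reads and 78.9% of 1785 scaled to total reads on genes, which moved the median of all genes to 0.07 and 0.04. With the library sizes of the FPKM, voom gave 61.9% of 1579. The last voom and the total-reads scaling were chosen after seeing the data. With the replicate number as a block, 1275 genes and 1 relative, *Hpcal4* (adjusted p = 0.788 in limma), were called. The numbers do not pair the samples. Depth limits *Hpcal4* and *Hpca*, which rest on few reads per sample.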
